A study of Mus musculus with 6 samples.

Results

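The genes described here are the expressed Zfp genes of mouse CD4+ T cells, a set of zinc finger genes chosen by name and level. A gene belongs to the set if the count table lists it as protein-coding, its symbol is Zfp followed by a number, and its mean over the 6 libraries is at least 5 CPM (counts scaled to a common library total, here the plain sum of each library). Of 394 protein-coding Zfp genes among 55536 listed genes, 194 met this limit, and all 194 passed the low-count filter of the test. The level that chose them is therefore no finding. Just inside the limit lay Zfp113, Zfp40 and Zfp282 with 5.16, 5.23 and 5.26 CPM, and just outside it Zfp960, Zfp273 and Zfp12 with 4.94, 4.89 and 4.75 CPM. In HDAC1-cKO libraries 6 of the 194 averaged under 5 CPM, and in WT libraries 4 did, so these met the limit through the other genotype. Zfp760, Zfp941, Zfp398, Zfp60 and Zfp595, named further on, are among them. Their choice favoured a difference, and their fold changes and p-values are given as a description.

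RNA was measured in donor CD4+ T cells of the 2D2 strain, whose transgenic T cell receptor recognises a myelin oligodendrocyte glycoprotein (MOG) peptide, on the C57BL/6 background. In HDAC1-cKO cells both Hdac1 alleles were floxed and Cre was expressed from the Cd4 promoter, which acts from thymic development on (label 2D2-Hdac1fl/fl-Cd4-Cre+). The cells called WT carried the same receptor and floxed alleles but no Cre (2D2-Hdac1fl/fl-Cd4-Cre-). An effect of Cre itself cannot be told apart from loss of HDAC1. Naive CD45.2+ donor cells were injected into CD45.1+ recipients, which were immunised in the footpad with MOG peptide in complete Freund's adjuvant 18 hours later. After 4 days, 500 donor 2D2+ CD4+ cells per library were sorted from draining popliteal lymph nodes. Each library came from 2 pooled mice, each genotype had 3 such libraries, which the series text calls biological replicates, and the labels used here give no ages.

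Zfp is a naming family: its members encode proteins with zinc fingers, small folds that hold a zinc ion and bind DNA or RNA. Many carry a KRAB box, which recruits the corepressor TRIM28 (KAP1). TRIM28 in turn brings the histone methyltransferase SETDB1, heterochromatin protein 1 and the NuRD complex, which contains HDAC1, to retroelements and other targets. Other members have no KRAB box and act as activators, as adaptors of corepressors, or on RNA. The last kind includes the tristetraprolin family, which speeds the decay of cytokine mRNA in T cells. Many KRAB genes arose by tandem duplication and lie in chromosomal groups.

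T cell markers were abundant and those of other cells low. Summed over 11 T cell genes, libraries reached 25066 to 34931 CPM, against 23.0 to 80.6 CPM for 10 B cell genes, 6.58 to 40.0 CPM for 14 myeloid and dendritic cell genes 55.9 to 92.8 CPM for 8 CD8 T and NK cell genes, 60.1 to 99.3 CPM for 10 stromal and endothelial genes and 0.819 to 2.47 CPM for 8 erythroid and platelet genes. Of the T cell genes, Cd3e alone passed the edgeR test, as did 1.97% of all tested genes. It was lower in HDAC1-cKO with a log2 fold change of -1.42 (edgeR adjusted p = 0.0102). Fold changes were negative in 9 of the 11 T cell genes, against 50.3% of all tested genes, with a median of -0.23. DESeq2 called 3 of the 11 and limma-voom with sample weights 8, where 9.81% and 10.2% of all tested genes were called. The myeloid and dendritic sum was 6.58 to 11.9 CPM in HDAC1-cKO cells and 20.4 to 40.0 CPM in WT, with 10 of its 14 genes averaging under 1 CPM and Csf1r, Cd14, Flt3, Cd209a and Clec9a at 0 in every library. The B cell sum was 39.6 to 80.6 CPM in HDAC1-cKO and 23.0 to 53.8 CPM in WT, and Cd79b among them lay higher without overlap (log2 fold change 1.00, adjusted p = 0.0592 by edgeR and 0.000541 by DESeq2). The CD8 T and NK cell sum was 77.7 to 92.8 against 55.9 to 83.9 CPM, with Cd8b1 higher without overlap (0.46, adjusted p = 0.127 by edgeR and 0.0344 by DESeq2). Cd8b1, with a mean of 58.5 CPM, made up most of that sum. Among the 6 tested genes of this list, 2 fold changes were positive and 4 negative, with a median of -0.33. Pecam1, with a mean of 75.9 CPM, made up most of the stromal and endothelial sum, and the other genes of that list averaged under 1 CPM. Of its 3 tested genes 1 was positive, Pdgfrb (log2 fold change 4.8, without overlap, adjusted p = 0.0948 by edgeR and 0.00241 by DESeq2). All 7 tested myeloid and dendritic genes were negative, among them Xcr1 (-1.57, without overlap, adjusted p = 0.0869 by edgeR and 0.00242 by DESeq2). The part of these markers in any Zfp difference was not tested. Libraries held 19956153 to 55900237 counts. Hdac1 itself stood at 14.7 to 17.2 CPM in the HDAC1-cKO libraries and 234.3 to 243.6 CPM in WT (log2 fold change -3.91 ± 0.12, SE, adjusted p = 9.59e-06 by edgeR). A trend with GC content set HDAC1-cKO replicate 2 off from the rest, and its values are given with the Zfp results it touches.

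Translated coding sequences showed how the 194 genes divide. Fingers of the C2H2 type, in which 2 cysteines and 2 histidines hold the zinc, were found in 190, with a median of 10 per protein and up to 36 in Zfp142. The CCCH type, with 3 cysteines and 1 histidine, was found in 3, namely Zfp36, Zfp36l1 and Zfp36l2, and 1 gene, Zfp330, matched neither pattern. A profile of the KRAB box matched 118 of the 194 (60.8%) and 119 of the 198 Zfp genes below the CPM limit that had a complete coding sequence (60.1%). Of the 200 genes below the limit, 35 had 0 counts in all libraries. KRAB members had a median of 11 C2H2 fingers and other members 6. Their median level was 10.4 CPM against 16.3 CPM.

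Levels of most members were low. The median was 12.3 CPM, 51 of 194 reached 20 CPM and 3 reached 100 CPM. Per length of transcript, in the deposited FPKM, the median member stood at 3.22 and the median of all 8590 protein-coding genes of at least 5 CPM at 11.2. The highest per length was Zfp207, a spindle assembly protein that binds BUB3, with 78.2 ± 13.4 FPKM in HDAC1-cKO and 88.6 ± 2.04 FPKM in WT (SD, n = 3). Zfp706, a small protein with 1 finger, followed with 86.7 ± 13.4 and 75.8 ± 2.19 FPKM, and the order of these top levels lies within their spread. Zfp511 and the nucleolar protein gene Zfp330 came next with means of 45.7 and 40.0 FPKM, followed by the KRAB gene Zfp53 with 34.5 FPKM.

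No expressed Zfp gene passed the test between genotypes. By edgeR's quasi-likelihood test, 0 of 194 had an adjusted p under 0.05, where 1.97% of all 15519 tested genes (0.979% higher and 0.992% lower in HDAC1-cKO) and 2.68% of protein-coding genes of at least 5 CPM (1.33% and 1.35%) did. The smallest adjusted p was 0.0507. At an unadjusted p under 0.05, 3 members were higher and 28 lower in HDAC1-cKO, which is 1.55% and 14.4% of them, against 8.62% and 8.39% of all tested genes and 10.9% and 11.1% of those coding genes. Both directions together gave 31 members, where 17.0% of all and 22.0% of coding genes reached this p. DESeq2 called 1 member higher and 12 lower (6.70% of members, against 9.81% of all and 12.4% of coding genes), and limma-voom with sample weights called 1 higher and 13 lower (7.22%, against 10.2% and 14.5%). These tools shared 11 calls. The member DESeq2 called higher was Zfp398, which met the CPM limit through HDAC1-cKO. Zfp760 and Zfp941, called lower by both tools, met it through WT. Zfp398, Zfp760 and Zfp941 are also among the members with an unadjusted p under 0.05 by edgeR. So is Zfp595, which met the limit through WT (plain CPM of 4.75 in HDAC1-cKO and 7.96 in WT). In bulk RNA, fewer cells with a transcript and less transcript per cell cannot be told apart.

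**Figure D1:**
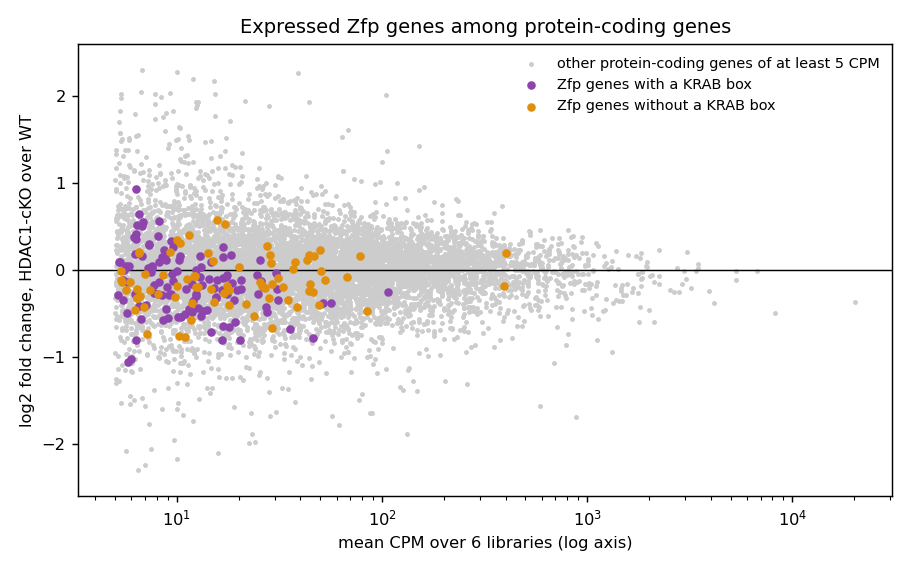
Log2 fold change of HDAC1-cKO over WT (vertical axis) against mean CPM over the 6 libraries (horizontal log axis) for the 194 Zfp genes, coloured by KRAB box, over other protein-coding genes of at least 5 CPM in grey. The Zfp points run from -1.06 to 0.93 and most lie below 0; 11 grey genes beyond 2.5 in either direction are not drawn.

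Most members lay slightly lower in HDAC1-cKO. Of the 194, 133 had a negative log2 fold change (68.6%, against 50.3% of all tested and 51.9% of coding genes). Their median was -0.17, with quartiles of -0.34 and 0.09, beside medians of 0 for all tested genes and -0.02 for protein-coding genes of at least 5 CPM. In 162 of 194 the difference was under 0.5 on the log2 scale, and in 2 it reached 1. The 3 HDAC1-cKO libraries all lay below the 3 WT libraries in 35 members (18.0%, against 11.8% of all tested and 14.4% of coding genes) and all above in 3 (1.55%, against 12.7% and 14.6%). Zfp760 and Zfp941, the 2 that reached 1, are among the 35, and Zfp398 is among the 3. These genes met the CPM limit through the genotype where they are high, which favoured such a gap. In either direction, 38 members did not overlap, where 24.6% of all and 28.9% of coding genes did not. KRAB and other members had the same median of -0.17. The 22 Zbtb genes and 9 Zkscan and Zscan genes of at least 5 CPM, zinc finger families with other domains, had medians of -0.12 and -0.13, and the 15 Klf and Sp genes -0.26, with 13 of the 15 below 0. The differences between these families were not tested.

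The size of this lean moved with 1 library and with GC content. Relative to each gene's mean over the 6 libraries, the median member stood at -0.23 on the log2 CPM scale in HDAC1-cKO replicate 2, at -0.03 and 0 in HDAC1-cKO replicates 1 and 3, and at 0.04, 0.09 and 0.11 in WT replicates 1, 2 and 3. Of the 194 genes, 90 had their lowest value in HDAC1-cKO replicate 2, and 15 to 26 in each other library. The KRAB members sat lowest there, at -0.32, against -0.10 for the others. Across 8330 genes with a mean of at least 10 CPM, which are not independent, the deviations of that library from the mean and the GC content of the longest transcript had a Pearson r of 0.586. In each of the other 5 libraries r was between -0.28 and -0.074. Zfp transcripts were GC-poor: the median was 42.6% GC, and 41.1% for KRAB members, against 49.1% over all tested genes.

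**Figure D2:**
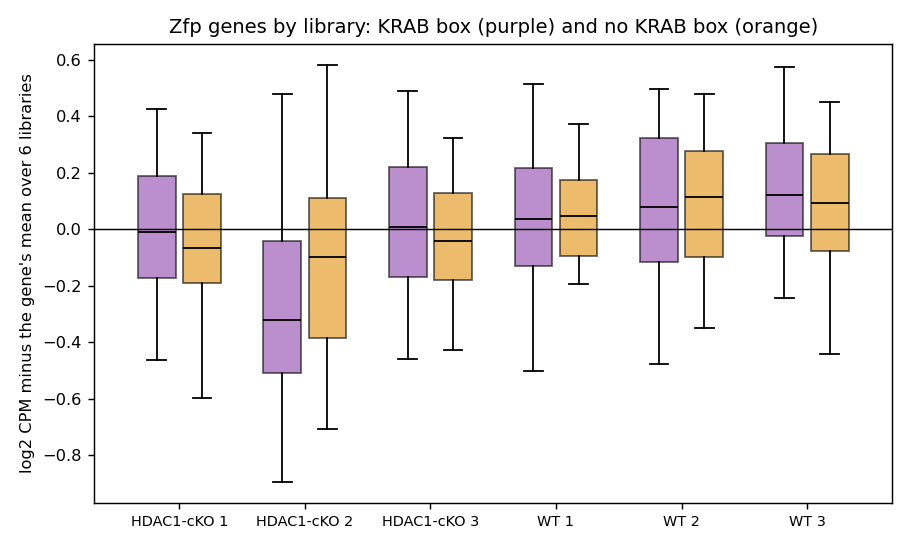
Log2 CPM of each Zfp gene minus its own mean over the 6 libraries (vertical axis), by library; boxes span the quartiles, lines mark medians and whiskers the 5th to 95th percentile of genes, with KRAB members in purple and the others in orange. The KRAB box of HDAC1-cKO replicate 2 is the lowest, with a median of -0.32, while the WT medians lie between 0.04 and 0.12.

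With offsets fitted to each library's GC trend, 105 of the 194 fold changes were negative, and without HDAC1-cKO replicate 2 119 were. Over the 194 members, which are not independent, fold change and GC content had a Pearson r of 0.206 without the offsets and -0.19 with them. The trend among members thus changed sign, and their values with the offsets are not free of GC content. With the offsets the member median moved from -0.17 to -0.04, and with GC and length offsets to -0.02, while the median of all tested genes was 0.03 and 0.02. The KRAB median became 0.01 and that of the other members -0.10. Without HDAC1-cKO replicate 2 the member median was -0.10. Among the third of members with the lowest GC content (35.4 to 40.1%), 52 of 65 had negative fold changes and the median of -0.21 turned to 0.03 with the offsets. In the third with the highest GC content (46.5 to 68.7%), the median was -0.14 and became -0.18. Members called with the GC offsets numbered 0 by edgeR.

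**Figure D3:**
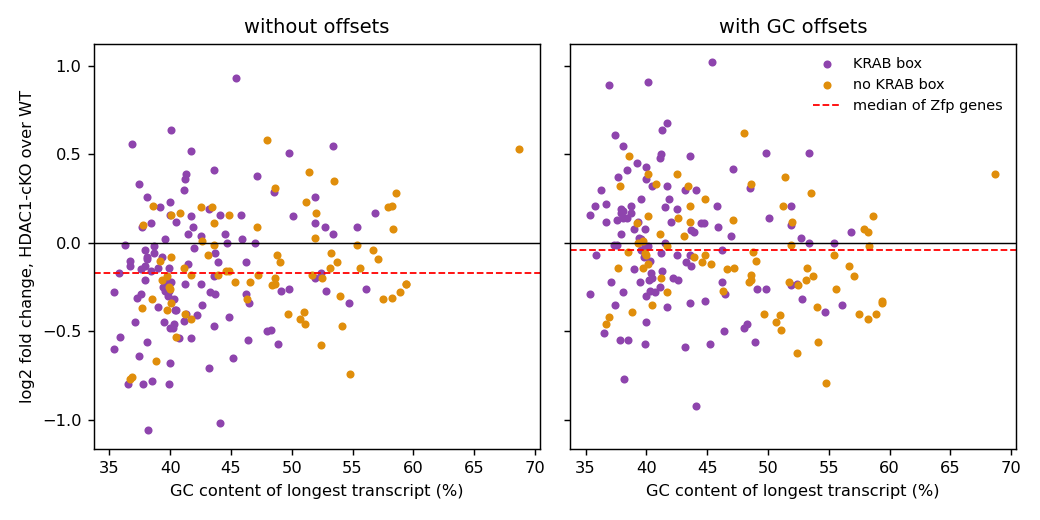
Log2 fold change of HDAC1-cKO over WT (vertical axes) against GC content of the longest transcript in percent (horizontal axes) for the 194 Zfp genes, without (left) and with (right) offsets for each library's GC trend. The dashed red line marks the median, which lies at -0.17 on the left and -0.04 on the right.

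Among single genes, Zfp62 came closest to the threshold. It encodes a protein with 25 C2H2 fingers and no KRAB box (ENSMUSG00000046311, chromosome 11, 49203292 to 49218816, plus strand, GRCm38). Zfp62 stood at 22.5, 21.5 and 23.9 CPM in HDAC1-cKO replicates 1, 2 and 3 and at 39.5, 34.3 and 34.3 CPM in WT replicates 1, 2 and 3. All 3 HDAC1-cKO values lay below all WT values, with means of 22.7 ± 1.21 and 36.0 ± 2.99 CPM (SD, n = 3). Its log2 fold change was -0.67 ± 0.14 (SE, adjusted p = 0.0507 by edgeR). Several other settings carried it past the threshold, among them DESeq2 size factors and leaving out HDAC1-cKO replicate 2 (adjusted p = 0.0499 and 0.0478), while with GC offsets it stood at -0.39 (adjusted p = 0.248).

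Zfp54, a KRAB gene with 12 fingers (ENSMUSG00000023882, chromosome 17, 21423227 to 21435640, plus strand), was next. Its HDAC1-cKO libraries held 27.2, 25 and 30.0 CPM and its WT libraries 39.1, 47.6 and 44.8 CPM. The groups did not overlap, and the log2 fold change was -0.68 ± 0.14 (SE, adjusted p = 0.0565 by edgeR). Exons of Gm49691 on the other strand cover 7.4% of its exon bases, and without strand their reads cannot be told apart. With no low-count filter, with at least 10 CPM in 3 libraries and with counts thinned to the smallest total, Zfp54 passed (adjusted p = 0.0441, 0.0381 and 0.0403). With GC offsets it stood at -0.45 (adjusted p = 0.147).

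Zfp760 and Zfp941, KRAB genes of low level, had the 2 largest differences, but both averaged under 5 CPM in HDAC1-cKO libraries and met the limit through WT, where they are high. Zfp760 (ENSMUSG00000067928, chromosome 17, 21707741 to 21725636) held 3.95, 3.66 and 3.67 CPM in HDAC1-cKO cells and 8.91, 5.76 and 8.98 CPM in WT, a log2 fold change of -1.06 ± 0.25 (SE, adjusted p = 0.0724 by edgeR). Its lowest library rested on 75 reads. Zfp941 (ENSMUSG00000060314, chromosome 7, 140807449 to 140822178, minus strand) held 4.41, 3.21 and 4.36 CPM against 7.10, 7.39 and 9.77 CPM, a log2 fold change of -1.02 ± 0.25 (SE, adjusted p = 0.0788 by edgeR). In both genes every WT library exceeded every HDAC1-cKO library. With GC offsets they stood at -0.77 and -0.92.

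Zfp317, a KRAB gene on chromosome 9 (19622102 to 19649731), stood at 13.3, 9.62 and 10.5 CPM in HDAC1-cKO cells and 19.3, 17.8 and 17.7 CPM in WT (log2 fold change -0.71 ± 0.18, SE, adjusted p = 0.0869 by edgeR). The 2 groups were again apart.

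In the other direction, Zfp398, a KRAB gene on chromosome 6 (ENSMUSG00000062519, 47835661 to 47873537), had the largest positive difference. It averaged under 5 CPM in WT and met the limit through the HDAC1-cKO libraries, where it is high. It held 8.31, 9.94 and 6.51 CPM in HDAC1-cKO cells and 4.06, 3.92 and 5.05 CPM in WT, a log2 fold change of 0.93 ± 0.24 (SE, adjusted p = 0.0961 by edgeR). Its expressed neighbours Zfp282, Zfp212, Zfp956 and Zfp746 stood at 0.09, -0.34, -0.30 and -0.26, so none of these 4 matched the size of its difference. Zfp992 and Zfp771 were the other members whose HDAC1-cKO libraries all lay above WT. Zfp992 stood at 10, 8.34 and 10.9 CPM against 6.24, 6.50 and 7.05 CPM, but 43.0% of its 50-base stretches also occur in other genes, mostly Zfp991, and how such reads were assigned is uncertain. Zfp771, with 68.7% GC the most GC-rich member, stood at 21.1, 20.9 and 18.4 CPM against 15.3, 10.8 and 15.8 CPM. Their log2 fold changes were 0.56 ± 0.20 and 0.53 ± 0.19 (SE, adjusted p = 0.195 and 0.206 by edgeR). Zfp637, Zfp606 and Zfp60 followed with 0.58, 0.52 and 0.64, and their groups overlapped.

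**Figure D4:**
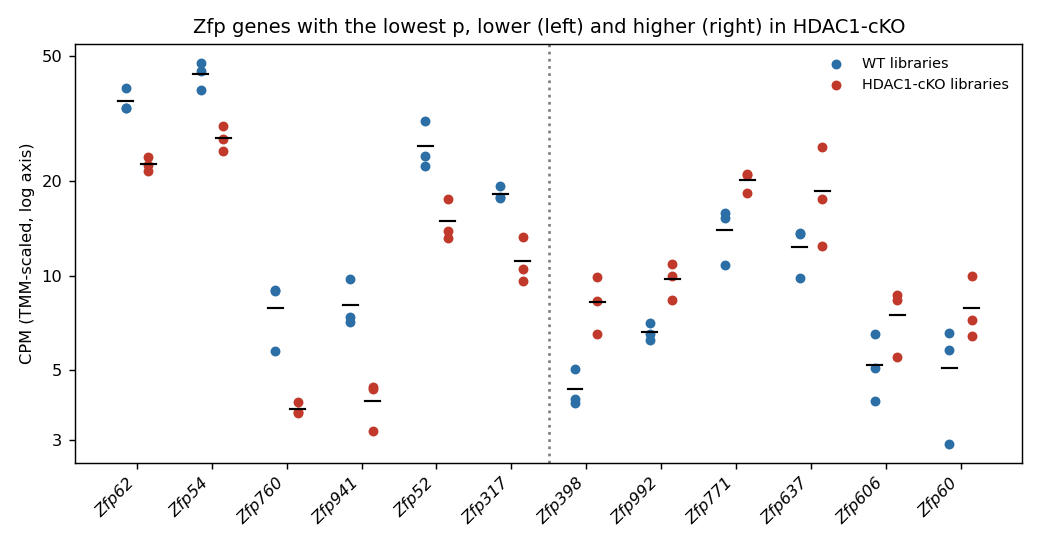
CPM on TMM-scaled totals (log axis) in each library for the 6 Zfp genes with the lowest p among those lower in HDAC1-cKO (left of the dotted line) and the 6 among those higher (right); points are libraries and bars group means. The 6 genes on the left have groups that do not overlap, as do Zfp398, Zfp992 and Zfp771 on the right. By edgeR 0 of the 12 passed the threshold. The 12 were picked by p from these same data, so their gaps are a description. Zfp398, Zfp760 and Zfp941 met the CPM limit through the genotype where they are high.

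Members often lay side by side. Within 200 kb of another member lay 97 of the 194, in 23 groups. The largest group, by number of members and not by their values, held 14 genes in the proximal part of chromosome 17 (21383748 to 22377281), all with a KRAB box, and it includes Zfp54, Zfp52 and Zfp760. Fold changes were negative in 13 of the 14, with a median of -0.50. With GC offsets 9 of the 14 were negative, and without HDAC1-cKO replicate 2 10 of the 14. By edgeR 0 of the 14 passed the threshold, while DESeq2 and limma-voom each called 4, namely Zfp51, Zfp52, Zfp54 and Zfp760. Of all tested genes, DESeq2 called 9.81% and limma-voom 10.2%, and Zfp760 met the CPM limit through WT, where it is high. Zfp51 and Zfp52 lay lower in every HDAC1-cKO library. Zfp51 held 42.2, 22.9 and 37.7 CPM against 49.2, 62.0 and 64.9 CPM in WT, and Zfp52 13.9, 13.2 and 17.6 CPM against 24.0, 31.2 and 22.4 CPM. Their log2 fold changes were -0.78 ± 0.23 and -0.80 ± 0.19 (SE, adjusted p = 0.135 and 0.0801 by edgeR). Zfp53, the most abundant KRAB member, held 88.3, 106.4 and 98.4 CPM against 106.9, 128.0 and 113.9 CPM, a narrow gap with a log2 fold change of -0.25 ± 0.12 (SE, adjusted p = 0.356).

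The sizes differed within the chromosome 17 group. Zfp677, Zfp994, Zfp944 and Zfp995 stood at -0.09, -0.04, -0.06 and 0.02 on the log2 scale, close to 0. With GC offsets the group median was -0.25, and Zfp53 stood at 0.03. The second group, 10 KRAB genes on chromosome 13 (67312998 to 67755228), had 9 negative fold changes, a median of -0.32 and -0.12 with the offsets. With the offsets 6 of its 10 were negative, and without HDAC1-cKO replicate 2 7 of the 10. In contrast, 2 groups of 4 KRAB genes, around Zfp81 on chromosome 17 and around Zfp60 on chromosome 7, had medians of 0.16. Over whole chromosomes, 20 of the 43 members on chromosome 7 and 16 of the 17 on chromosome 13 had negative fold changes. With GC offsets these counts were 21 and 10, and without HDAC1-cKO replicate 2 they were 23 and 10. Neighbouring paralogs share sequence, and 24 of the 194 members had at least 20% of their 50-base stretches in other genes. Zfp51, Zfp52, Zfp53, Zfp54 and Zfp760 had 0.5 to 5.3%.

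**Figure D5:**
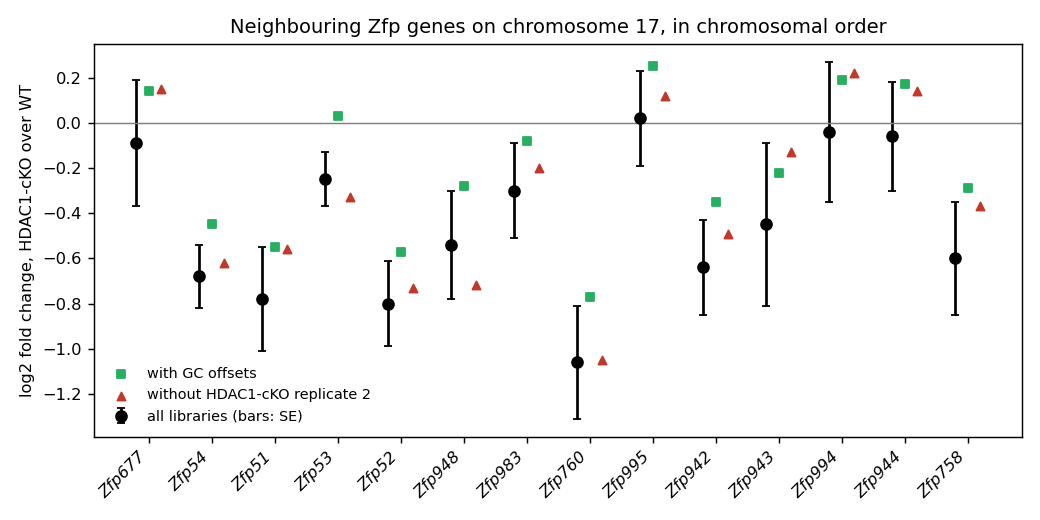
Log2 fold change of HDAC1-cKO over WT (vertical axis) for the 14 neighbouring KRAB Zfp genes of chromosome 17 in chromosomal order; black points with SE bars use all libraries, green squares GC offsets and red triangles leave out HDAC1-cKO replicate 2. Black points are negative for 13 of 14 genes, with Zfp760 lowest at -1.06, and the green squares lie above them for each gene.

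Upstream sequences are shown for 4 of the 14 neighbours, the 3 among the members with the lowest p (Zfp54, Zfp52 and Zfp760) and the most abundant (Zfp53), and for Zfp62, the gene closest to the threshold. These 5 were picked with their values known. Each is the 250 bases before the most upstream start that RefSeq lists (build GRCm38.p6), 5′ to 3′ in the direction of the gene. Capitals mark matches, on either strand, to a GC box (GGGCGG, bound by Sp1-type factors), an ETS site (CCGGAAG), a YY1 site (AAGATGGCG), the palindromic NRF1 site or a TATA box (TATAAA). No promoter of Zfp51 is shown.
Zfp54 (chr17:21422977-21423226, plus strand): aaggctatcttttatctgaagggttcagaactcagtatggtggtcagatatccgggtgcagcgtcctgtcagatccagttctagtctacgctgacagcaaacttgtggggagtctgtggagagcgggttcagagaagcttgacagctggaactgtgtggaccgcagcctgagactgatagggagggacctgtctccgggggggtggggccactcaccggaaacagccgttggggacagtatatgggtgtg
Zfp53 (chr17:21488738-21488987, plus strand): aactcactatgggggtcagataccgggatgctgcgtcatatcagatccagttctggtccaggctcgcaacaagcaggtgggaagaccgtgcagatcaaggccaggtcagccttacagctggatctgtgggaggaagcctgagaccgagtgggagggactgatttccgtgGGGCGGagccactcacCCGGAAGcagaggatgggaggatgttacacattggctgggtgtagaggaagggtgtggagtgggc
Zfp52 (chr17:21535289-21535538, plus strand): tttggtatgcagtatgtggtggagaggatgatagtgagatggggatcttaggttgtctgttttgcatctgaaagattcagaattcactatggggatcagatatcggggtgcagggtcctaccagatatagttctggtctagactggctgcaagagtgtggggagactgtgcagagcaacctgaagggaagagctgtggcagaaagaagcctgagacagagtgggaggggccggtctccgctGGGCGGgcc
Zfp760 (chr17:21707491-21707740, plus strand): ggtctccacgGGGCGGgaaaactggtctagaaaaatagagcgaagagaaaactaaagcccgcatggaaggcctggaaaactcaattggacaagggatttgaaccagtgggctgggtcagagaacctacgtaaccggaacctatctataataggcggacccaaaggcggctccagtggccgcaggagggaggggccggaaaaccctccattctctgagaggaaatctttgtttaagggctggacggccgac
Zfp62 (chr11:49203042-49203291, plus strand): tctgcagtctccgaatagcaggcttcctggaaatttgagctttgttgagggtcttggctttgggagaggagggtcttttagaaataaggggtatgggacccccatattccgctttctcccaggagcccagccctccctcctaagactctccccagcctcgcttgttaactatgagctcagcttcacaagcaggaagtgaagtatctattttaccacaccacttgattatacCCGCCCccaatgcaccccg

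Zfp53 held a GC box 81 bases and an ETS site 65 bases before the start, Zfp52 a GC box at 9, Zfp760 one at 240 and Zfp62 one at 19 on the other strand, and Zfp54 held 0 of these 5 letter strings. Zfp54 and Zfp53 shared a longest identical run of 14 bases. Of the 163 members with a listed promoter, 46.0% held the GC box, against 32.9% of 27025 promoters of the same length over all genes. The share was 34.3% of 102 KRAB members and 65.6% of 61 others. The ETS string stood in 18.4% of member promoters and 7.05% of all, and the TATA box in 4.29% and 13.0%. YY1 and NRF1 strings were in 0.613% and 1.84% of member promoters, against 0.607% and 0.781% of all. These are letter matches in a fixed window. Members were chosen as coding genes of at least 5 CPM and the 27025 promoters were not. The shares are therefore not read as a trait of Zfp genes.

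Members that act on RNA were described by a list of 11 genes, of which 10 were expressed at 5 CPM or more. Of these 10, 0 passed by edgeR and 1 each by DESeq2 (Zfp346) and limma-voom (Zfp36), where 9.81% and 10.2% of all tested genes were called. Fold changes were negative in 8 of the 10, against 50.3% of all tested genes and 68.6% of members, and the median was -0.22. Zfp36, which encodes tristetraprolin, held 53.5, 105.3 and 53.5 CPM in HDAC1-cKO cells and 88.2, 101.3 and 104.4 CPM in WT. HDAC1-cKO replicates 1 and 3 lay below all WT libraries and replicate 2 above them, and the log2 fold change was -0.47 ± 0.26 (SE, adjusted p = 0.426 by edgeR). Zfp36l1, its paralog, had the same pattern, with 33.2, 79.7 and 38.4 CPM against 51.8, 55.2 and 56.9 CPM, and a log2 fold change of -0.11 ± 0.30 (SE, adjusted p = 0.900). Without HDAC1-cKO replicate 2 both were called lower, with log2 fold changes of -0.88 and -0.62 (edgeR adjusted p = 0.0148 and 0.0391), as was Zfp62; these 3 are 1.55% of the members, against 4.01% of all tested and 6.04% of coding genes in that fit. Zfp36 was also called by limma-voom with all libraries (adjusted p = 0.0128). Zfp36l1 shares 55.9% of its exon bases with Gm26669 on the other strand, so its counts can hold reads of both.

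Zfp36l2, the other tristetraprolin paralog, stood far lower, at 5.42 ± 1.33 CPM in HDAC1-cKO cells and 9.02 ± 2.75 CPM in WT (SD, n = 3), with overlapping groups and a log2 fold change of -0.74 ± 0.30 (SE, adjusted p = 0.266 by edgeR). Zfp346, which binds double-stranded RNA, held 10.1, 9.57 and 8.67 CPM against 13.6, 16.0 and 12.7 CPM, without overlap (log2 fold change -0.58 ± 0.18, SE, adjusted p = 0.146 by edgeR, 0.0364 by DESeq2 and 0.0526 by limma-voom). Zfp638, which takes part in silencing unintegrated retroviral DNA, differed by -0.34 ± 0.17 (SE, adjusted p = 0.360). Zfp386, a KRAB gene among the 8 most abundant members by CPM, held 54.5, 38.2 and 54.8 CPM against 56.9, 69.5 and 66.1 CPM, without overlap (log2 fold change -0.38 ± 0.17, SE, adjusted p = 0.303). The abundant Zfp207 stood at 371.5 ± 63.0 and 419.9 ± 9.48 CPM and Zfp706 at 429.7 ± 65.4 and 374.5 ± 12.3 CPM (SD, n = 3), and both overlapped between genotypes.

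Among 6 members listed as sequence-specific regulators of transcription, 0 passed and the median was -0.21. Of these 6, 5 had negative fold changes, against 50.3% of all tested genes and 68.6% of members. Zfp410, known as an activator of the NuRD ATPase gene Chd4, held 92.9, 76.4 and 79.3 CPM in HDAC1-cKO cells and 68.6, 73.0 and 80.1 CPM in WT (log2 fold change 0.16 ± 0.13, SE, adjusted p = 0.575 by edgeR). Chd4 differed by -0.13 ± 0.14 (SE, adjusted p = 0.715). Zfp263 and the GC-rich-site binder Zfp148 differed by -0.24 and -0.25, and the Zfp148 value in HDAC1-cKO replicate 2 was 28.8 CPM against 46.1 to 52.5 CPM in the other libraries. Members linked to corepressors numbered 6 of a list of 10. None of the 6 passed by edgeR, 1 had an unadjusted p under 0.05 (16.7%, against 17.0% of all tested genes), and the median was -0.08. That 1 was Zfp518a, with 9.87, 6.52 and 8.08 CPM against 12.9, 14.4 and 14.5 CPM, no overlap and a log2 fold change of -0.77 ± 0.21 (SE, adjusted p = 0.101 by edgeR; DESeq2 and limma-voom adjusted p = 0.0113 and 0.0298). Zfp217, a partner of CoREST and CtBP, and Zfp644, a partner of the methyltransferase G9a, differed by -0.18 ± 0.20 and -0.10 ± 0.30 (SE).

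KRAB genes with known retroelement or imprinting targets gave 4 members of a list of 5, with a median of -0.29 and 0 past the threshold by edgeR. Zfp809, which recruits TRIM28 to the primer binding site of murine leukaemia viruses, stood at 16.4, 12.5 and 13.3 CPM in HDAC1-cKO cells and 19.6, 25 and 21.7 CPM in WT. The groups did not overlap, with a log2 fold change of -0.65 ± 0.18 (SE, adjusted p = 0.109 by edgeR; DESeq2 and limma-voom adjusted p = 0.0151 and 0.0350), and with GC offsets it stood at -0.57. Zfp932, a silencer of endogenous retroviruses, differed by -0.31 ± 0.23 and shared 37.0% of its 50-base stretches with other genes, mostly Gm15446. Zfp445, which protects imprints, differed by -0.28 ± 0.23, and Zfp568 by 0.38 ± 0.36 (SE).

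The partners that KRAB proteins recruit were taken as a list of 19 genes outside the Zfp set, all tested. None passed by edgeR, 3 had an unadjusted p under 0.05 (15.8%, against 17.0% of all tested genes), 11 had positive and 8 negative fold changes, and the median was 0.08. Trim28 held 91.4, 90.4 and 95.8 CPM in HDAC1-cKO cells and 69.8, 71.6 and 62.3 CPM in WT, so that every HDAC1-cKO library lay above WT (log2 fold change 0.45 ± 0.11, SE, adjusted p = 0.0845 by edgeR). Atf7ip, the cofactor that stabilises SETDB1, lay lower without overlap, with 67.3, 76.8 and 79.1 CPM against 97.2, 108.3 and 108.8 CPM (log2 fold change -0.49 ± 0.12, SE, adjusted p = 0.0740). DESeq2 and limma-voom each called both, 2 of the 19 where 9.81% and 10.2% of all genes were called, with adjusted p of 0.00544 and 0.0166 for Trim28 and 0.00396 and 0.0172 for Atf7ip. Setdb1 differed by 0.24 ± 0.14, the NuRD ATPase gene Chd3 by 0.86 ± 0.34 and Atrx, a remodeller of heterochromatin, by -0.31 ± 0.19 (SE, adjusted p = 0.241 to 0.484 by edgeR).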

How the data were processed

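Messenger RNA of 500 sorted cells per library was amplified by Smart-seq2 and sequenced as 50-base single reads by a kit that does not mark strand, per the labels' protocols. The authors deposited a pair of tables: read counts, as whole numbers for each gene, and FPKM, whose ratio to the counts shows a scaling between libraries by DESeq2 size factors. Per the submitters' processing notes, the tools included STAR 2.5.2b. They also list DESeq2 1.24.0, R 3.6.1 and Picard 2.19.2. The read counter was not given in the sources used here, nor how strand and reads with several matches were treated. Coordinates are GENCODE M21 on GRCm38.

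Counts were filtered by filterByExpr, scaled by TMM and tested with edgeR 4.0.16 (quasi-likelihood, robust, two-sided; R 4.3.3), with Benjamini-Hochberg adjustment over 15519 genes. Libraries held 19956153 to 55900237 counts, without molecular identifiers, so counts are not independent molecules. CPM use TMM-scaled totals except in the membership rule. Standard errors come from the fold change and its F statistic. Finger and KRAB matches come from translated GENCODE M21 coding sequences, with a profile built by MAFFT 7.526 and HMMER 3.4 (E-value up to 0.001). Promoters are from RefSeq. GC offsets subtract a spline of each library's deviation on GC content. DESeq2 1.42.0 and limma 3.58.1 were alternatives. The fits were tested on simulated data.

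The members, lists and alternatives were chosen with earlier results of these data known. Genes named were Hdac1, the 6 members with the lowest p in each direction, the 8 most abundant, up to 3 per role list and 5 of the KRAB partner list. The chromosome 17 neighbours, those of Zfp398, Zfp511, Zfp142, Zfp568, Zfp595, Chd4, Cd3e, Cd79b, Cd8b1, Pecam1, Pdgfrb and Xcr1 were chosen after their values were seen.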

Additional observations from a re-analysis of the deposited data

How the results depend on the processing

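The median log2 fold change of the Zfp members, -0.17 in the reported fit, stayed negative under every setting tried. It was -0.04 with GC offsets, -0.02 with GC and length offsets, -0.05 with GC offsets and a replicate block, and -0.20 to -0.10 without 1 library. The count of members called moved from 0 higher and 0 lower to 1 and 12 with DESeq2 and 1 and 13 with limma-voom. By edgeR 1 was lower with DESeq2 size factors and 1 without robust estimation, 2 with the 10 CPM filter, 2 without a filter and 2 with thinned counts. For these settings the share of all tested genes is not given here, so the counts are not read as a trait of the members. Without 1 library 0 to 3 were lower, the 3 being without HDAC1-cKO replicate 2, where 4.01% of all tested genes were called. At an edgeR adjusted p under 0.1, 1 was higher (Zfp398) and 6 lower, among them Zfp760 and Zfp941. Zfp398, Zfp760 and Zfp941 met the CPM limit through the genotype where they are high. The share of all tested genes at this threshold is not given here, so these counts are not read as a trait of the members. With a limit of 2 CPM, 2 were higher, Zfp358 and Zfp667 (log2 fold changes 2.19 and 2.15, edgeR adjusted p = 0.0275 and 0.0166), which average 2.57 and 2.92 CPM and so are not members; they were named after their values were seen. The KRAB partner list went from 0 to 1 higher and 1 lower with DESeq2 and the same with limma-voom.

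Over all genes, 152 higher and 154 lower became 707 and 667 with DESeq2, 770 and 819 with limma-voom, 258 and 245 with GC offsets, 237 and 232 with GC and length offsets, 101 higher with GC offsets and the replicate block, 243 lower without a filter, and 15 to 258 higher and 10 to 368 lower without 1 library. The deviations of same-numbered libraries from their group means had r of 0.204, 0.016 and -0.128. With 3 libraries per genotype these values cannot show whether the numbers pair libraries, and the labels do not say. With the replicate block 34 genes were higher and 31 lower, and 0 Zfp members were called. The cause of these shifts was not tested.

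Of the 194 members, 28 turned from negative to positive with GC offsets and 20 without HDAC1-cKO replicate 2. Among the neighbours on chromosome 17, Zfp677, Zfp994 and Zfp944 turned in both (0.14, 0.19 and 0.17 with the offsets). Among the genes named by rule, directions turned for Zfp53 (0 with GC and length offsets, 0.03 with GC offsets), Zfp330 (0.14, 0.15, and 0.14 with GC offsets and block), Zfp644 (0.17, 0.11 and 0.08 likewise, 0.09 with limma-voom, and -0.46 to 0.13 without 1 library), Zfp148 (0.03) and Atrx (0.01), both with GC and length offsets, and Zfp36l1 (-0.62 to 0.11 without 1 library). Depth limits weak members such as Zfp760, with 75 reads in its lowest library.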
